A study of Caenorhabditis elegans with 7 samples.

Results

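The cytosolic small ribosomal subunit is represented here by its protein genes of the nematode Caenorhabditis elegans, taken as all genes of the raw count table whose symbol is rps followed by a number. The rule found 31 of the 46748 genes in the table, rps-0 to rps-30, each number once. Their transcripts were sequenced from embryos at an early stage, before gastrulation. The mutant strain carried the allele ok889 of flp-21, a gene for an FMRFamide-like neuropeptide, and it was set against the wildtype strain, named N2 in the titles. There were 4 libraries of flp-21(ok889) mutant embryos, numbered 11, 22, 29 and 30, and 3 of wildtype embryos, numbered 11, 22 and 30. The series title speaks of neuronal control of maternal provisioning, so the comparison asks how much of each transcript the embryos of the mutant held next to those of wildtype. The embryos were taken from mothers that held 1 or 2 eggs. The labels say neither what the library numbers mark nor whether each library had a culture of its own. The p-values therefore speak only of the spread among the libraries, part of which may be technical.

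The small subunit binds the messenger RNA, scans it with initiation factors for the start codon and holds the decoding centre, where codon and anticodon are matched. It is built around a single ribosomal RNA from a set of proteins, each present once per subunit, and is divided into a head and a body with a platform. Ribosomal protein genes are among the most highly transcribed genes of growing cells. An early worm embryo starts with ribosomes and messages loaded by the mother and transcribes little of its own before gastrulation. Animals that cannot make ribosomes of their own can pass embryogenesis on the maternal supply. In bulk embryo samples, fewer cells of a type and less RNA per cell cannot be told apart.

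Total counts ran from 34164612 to 53620276 in the mutant libraries and from 34262203 to 42988763 in the wildtype libraries, and every one of the 31 genes had at least 1258 counts in every library, so counting error was small beside the spread between libraries. The targeted gene could not check the labels. Transcripts of flp-21 had 2, 1, 5 and 9 counts in mutant libraries 11, 22, 29 and 30, against 24, 2 and 6 counts in wildtype libraries 11, 22 and 30. Mutant libraries 22 and 29 were the most alike, with a Pearson correlation of 0.992 across genes in log2 CPM against 0.940 to 0.973 for the other mutant pairs. They differed by more than counting error, with a chi-square per degree of freedom of 22.9 over all genes and 10.96 over the 31 rps genes. This covers counting error only and would not tell 2 preparations of the same RNA apart from separate embryos, so the pair was counted as 2 samples because the labels list them as such. Results are given without that pair and without wildtype libraries 11 and 22, which held the most intestinal transcripts, where this matters.

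Transcripts of the small subunit were several-fold scarcer in the libraries of mutant embryos, and almost the whole set moved together. The wildtype libraries also held far more transcripts of sperm and adult intestine, as given below. The part of such tissue in the difference was not tested. Summed over the 31 genes, the level was 4760.2, 4288, 3896 and 12365 CPM (read counts relative to library size, scaled by the TMM method) in mutant libraries 11, 22, 29 and 30. In wildtype libraries 11, 22 and 30 it was 41795, 53957 and 44195 CPM. All 4 mutant sums lay below all 3 wildtype sums, and mutant library 30 stood apart from the other 3 mutant libraries. The means were 6327 ± 4041 CPM in the mutant (SD, n = 4) and 46649 ± 6442 CPM in wildtype (n = 3), and the mutant mean was 4315 ± 433 CPM without library 30. As a share of unscaled total counts, the 31 genes took 0.416% to 1.21% in the mutant libraries and 3.23% to 5.37% in the wildtype libraries.

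All 31 genes passed the filter on low counts, and 30 of them fell in the mutant, 0 rose and 1, rps-17, did not pass (edgeR quasi-likelihood test, adjusted p below 0.05 over all 13035 genes tested). Of all genes tested, 29.4% fell and 9.01% rose, 38.4% together. Among the 976 of them with a mean level at least that of the lowest rps gene, 18% fell. None of the 31 rose at an unadjusted p under 0.05 in edgeR, and DESeq2 also called 30 of the 31 lower and 0 higher, with 30.3% of all genes lower. The median log2 fold change of the 31 genes was -2.94, a 7.69-fold lower level in the mutant, beside -0.21 over all genes tested. Single genes ran from -3.85 to -1.67, with standard errors between 0.39 and 0.67. The libraries of the genotypes did not overlap for the same number, 30 of 31, against 30.5% of all genes tested for which every mutant library lay lower. Without mutant library 30 all 31 genes fell and the median moved to -3.58. Without mutant libraries 22 and 29, 25 genes fell, and without wildtype libraries 11 and 22, which leaves wildtype library 30 alone and assumes that it varies as the mutant libraries do, 24 fell.

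**Figure D1:**
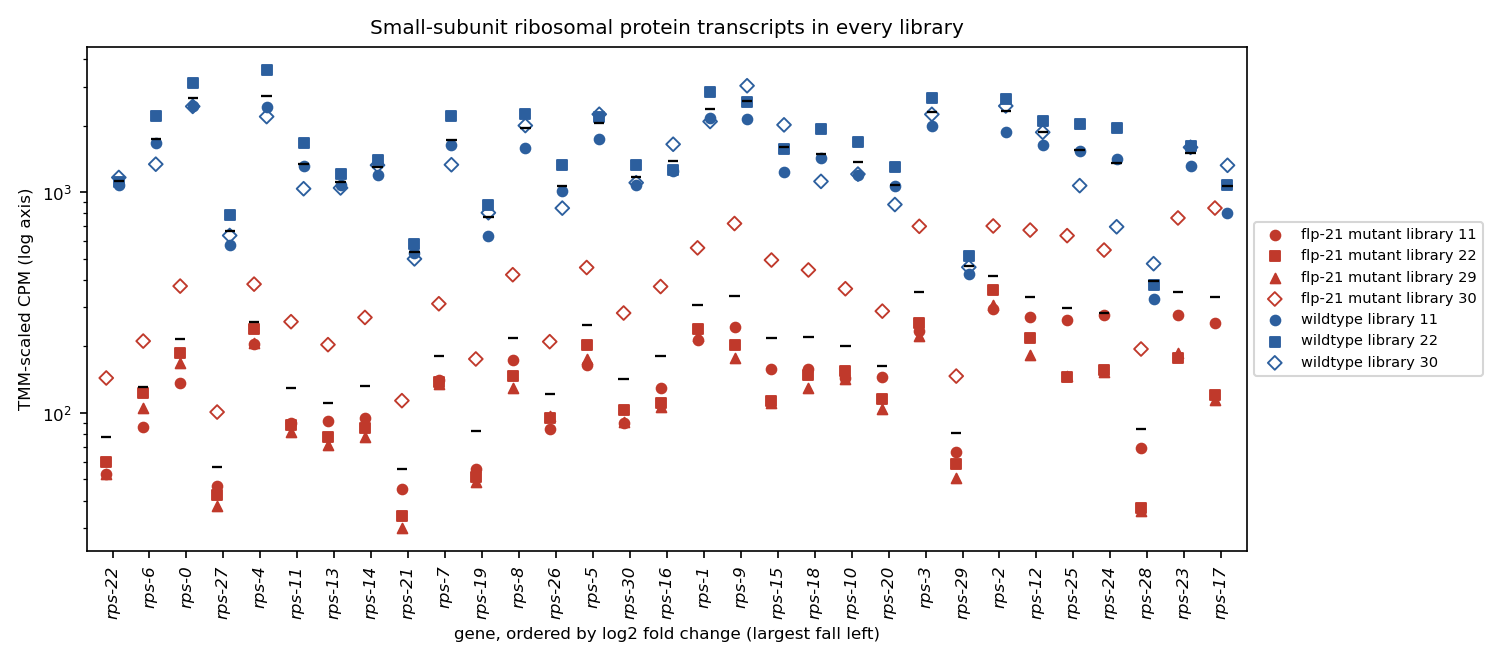
TMM-scaled CPM on a log axis of the 31 small-subunit protein genes in every library, mutant left of wildtype, with genes ordered by log2 fold change and short black bars for the arithmetic mean of each genotype. Mutant library 30 is the highest mutant point for all 31 genes, and the genotypes overlap only for rps-17, at 847 CPM in mutant library 30 against 801 CPM in wildtype library 11.

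The largest fall was that of rps-22 (WBGene00004491, chromosome III from 1950492 to 1951427, WBcel235), which encodes uS8, a protein of the body called RPS15A in humans. It had 53.1, 60.1, 52.7 and 144 CPM in mutant libraries 11, 22, 29 and 30, against 1081, 1108 and 1165 CPM in wildtype libraries 11, 22 and 30. The 3 wildtype libraries lay close together, and all 4 mutant libraries were far below them, library 30 less so than the others. This was a 14.4-fold lower level, with a log2 fold change of -3.85 (SE 0.45, edgeR adjusted p = 3.56e-04). Next came rps-6 (WBGene00004475, chromosome I from 13952159 to 13953194), which encodes eS6, known in mammals as the target of S6 kinase in the TOR pathway. Its level was 86.5, 123, 105 and 211 CPM in the mutant libraries and 1672, 2209.7 and 1338 CPM in wildtype, with a log2 fold change of -3.73 (SE 0.42, edgeR adjusted p = 3.01e-04). Wildtype library 22 was the highest and mutant library 11 the lowest, and the genotypes did not overlap.

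For rps-0 (WBGene00004469, chromosome III from 4752899 to 4754083), whose product uS2 sits near the exit of the messenger RNA and is called RPSA in humans, the values were 137, 187, 168 and 375 CPM in the mutant libraries and 2442, 3129.7 and 2445 CPM in wildtype. It fell 12.3-fold, with a log2 fold change of -3.62 (SE 0.43, edgeR adjusted p = 3.86e-04). Mutant libraries 22 and 29 held more of it than mutant library 11, and library 30 more still. The zinc-binding protein eS27 is encoded by rps-27 (WBGene00004496, chromosome V from 103394 to 104064), which had 46.6, 42.5, 37.7 and 100.8 CPM in the mutant libraries and 575, 789.9 and 636 CPM in wildtype. Its log2 fold change of -3.55 (SE 0.43, edgeR adjusted p = 3.98e-04) was close to that of rps-0. Its CPM, not divided by gene length, were several times lower in both genotypes. Per kilobase of summed exon length the 2 genes were closer. The means were 160 CPM per kb in the mutant and 1873 CPM per kb in wildtype for rps-27, against 213 and 2622 CPM per kb for rps-0. The gene rps-4 (WBGene00004473, chromosome IV from 7083694 to 7084682), for the body protein eS4, had 205, 240.3, 207 and 383 CPM in the mutant libraries and 2418, 3578 and 2198 CPM in wildtype, the value of wildtype library 22 being the highest CPM of the set in any library. Its log2 fold change of -3.40 (SE 0.39, edgeR adjusted p = 3.23e-04) had the smallest standard error of the 31 genes. Mutant library 30 was closest to its own group here, at 1.76 times the mean of the other 3 mutant libraries. The last of the 6 largest falls was rps-11 (WBGene00004480, chromosome IV from 11602384 to 11603287), for the body protein uS17, with 90.3, 88.0, 81.4 and 259 CPM in the mutant libraries and 1309, 1663 and 1036 CPM in wildtype. Mutant libraries 11, 22 and 29 were nearly level and library 30 well above them, and the log2 fold change of -3.37 (SE 0.49, edgeR adjusted p = 8.41e-04) was the smallest of these 6. All 6 of these genes encode proteins of the body or platform.

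At the other end of the range stood rps-17 (WBGene00004486, chromosome I from 6220089 to 6220764), for eS17 of the head, a gene mutated in human Diamond-Blackfan anaemia. It had 254, 121, 114 and 847 CPM in mutant libraries 11, 22, 29 and 30, against 801, 1075 and 1322 CPM in wildtype libraries 11, 22 and 30. Mutant library 30 lay between wildtype libraries 11 and 22, while the other 3 mutant libraries were well below wildtype. The log2 fold change of -1.67 (SE 0.67, edgeR adjusted p = 0.0742) did not pass. Without mutant library 30, at 5.19 times the mean of the other mutant libraries, the log2 fold change was -2.71 and passed (edgeR adjusted p = 0.00201). The smallest fall that passed was that of rps-23 (WBGene00004492, chromosome IV from 12390264 to 12391396), for uS12, whose bacterial counterpart lines the decoding centre and affects the accuracy of translation. Its level was 276, 178, 186 and 763 CPM in the mutant libraries and 1311, 1611 and 1595 CPM in wildtype. It fell 4.29-fold, with a log2 fold change of -2.10 (SE 0.53, edgeR adjusted p = 0.0111). Its highest mutant value, in library 30, was 0.582 of the lowest wildtype value.

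The shortest gene of the set, rps-28 (WBGene00004497, chromosome IV from 1659691 to 1660011), encodes the small head protein eS28. It had 69.6, 37.03, 35.8 and 195 CPM in the mutant libraries and 329, 378 and 474 CPM in wildtype, with a log2 fold change of -2.22 (SE 0.59, edgeR adjusted p = 0.0137). Mutant library 30 was again highest of its group, and mutant library 11 held more than libraries 22 and 29. The body protein eS24, a further product affected in human Diamond-Blackfan anaemia, is encoded by rps-24 (WBGene00004493, chromosome IV from 385894 to 386606). Its level was 276, 156, 153 and 546 CPM in the mutant libraries and 1416, 1956 and 696 CPM in wildtype, with a log2 fold change of -2.26 (SE 0.54, edgeR adjusted p = 0.00871). Wildtype library 30 held 0.413 times the mean of the other wildtype libraries, the lowest such ratio of the 31 genes. Without wildtype library 22 its log2 fold change of -1.79 no longer passed (edgeR adjusted p = 0.0518). For rps-25 (WBGene00004494, chromosome IV from 5947036 to 5947605), whose product eS25 is needed in yeast and human cells for initiation on some viral internal ribosome entry sites, the level was 265, 146, 147 and 635 CPM in the mutant libraries and 1539, 2032 and 1069.6 CPM in wildtype. The log2 fold change of -2.38 (SE 0.56, edgeR adjusted p = 0.00781) came with a wide spread in both genotypes. For rps-12 (WBGene00004481, chromosome III from 5679239 to 5680187), for the head protein eS12, which takes part in cell competition in Drosophila, it was 271, 218, 182 and 673 CPM in the mutant libraries and 1638, 2101 and 1866 CPM in wildtype, a log2 fold change of -2.47 (SE 0.48, edgeR adjusted p = 0.00324). The 3 wildtype libraries lay close together for rps-12, and none of the 4 mutant libraries reached them.

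Calls among the small falls, and that of rps-18, depended on single pairs of libraries. Without mutant libraries 22 and 29, rps-12, rps-23, rps-24, rps-25 and rps-28 did not pass, at edgeR adjusted p from 0.0591 to 0.126. Their log2 fold changes were then -1.95 for rps-12, -1.50 for rps-23, -1.68 for rps-24, -1.74 for rps-25 and -1.54 for rps-28, each closer to 0 than with all libraries. Without wildtype libraries 11 and 22 these 5 and rps-18 did not pass, at adjusted p from 0.0583 to 0.303. The log2 fold changes of rps-12 (-2.25), rps-23 (-1.96) and rps-28 (-2.27) stayed near those with all libraries, while standard errors were larger, and those of rps-18 (-2.13), rps-24 (-1.07) and rps-25 (-1.62) were closer to 0. All of these values kept their negative sign.

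By place in the subunit, 12 of 13 genes for proteins of the head fell, with a median log2 fold change of -2.72, and 18 of 18 genes for proteins of the body and platform, with a median of -3.26. Head genes made up 44.4, 40.3, 40.3 and 46.8% of the rps counts in mutant libraries 11, 22, 29 and 30. They made up 36.5, 36.3 and 39.3% in wildtype libraries 11, 22 and 30. The mutant libraries were all higher, though libraries 22 and 29 were close to wildtype library 30. Genes for proteins with a bacterial counterpart had a median of -2.94 (15 of 15 fell) and those without one a median of -3.09 (15 of 16 fell). These splits are descriptions and the differences between them were not tested.

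The 19 genes between these extremes had log2 fold changes from -3.32 to -2.48, and all of them fell, with edgeR adjusted p from 5.51e-04 for rps-7 to 0.00345 for rps-15. In the head, the largest of these was rps-19 (-3.22), for eS19, often mutated in human Diamond-Blackfan anaemia. It was followed by rps-5 (-3.05), for uS7 near the exit of the messenger RNA, by rps-16 (-2.94), for uS9, and by rps-15 (-2.88), for uS19. The genes rps-18 (-2.76), for uS13, which like uS9 touches the transfer RNA in the peptidyl site in bacteria, rps-10 (-2.76), for eS10, rps-20 (-2.72), for uS10, rps-3 (-2.71), for uS3 at the entry of the messenger RNA channel, and rps-29 (-2.53), for the zinc-binding uS14, completed the head. In the body and platform, rps-13 (-3.32) and rps-14 (-3.30), for uS15 and the platform protein uS11, were close to rps-21 (-3.27), for eS21. The genes rps-7 (-3.25) and rps-8 (-3.16), for eS7 and eS8, were followed by rps-26 (-3.13), whose yeast counterpart binds the messenger RNA upstream of the start codon. The gene rps-1 (-2.94), for eS1 beside it, stood with rps-30 (-3.04) and rps-9 (-2.94) near the median of the set. The smallest fall among these 10 was that of rps-2 (-2.48), for uS5, which with uS3 and uS4 forms the entry of the messenger RNA channel. Genes for proteins at the entry, rps-2, rps-3 and rps-9, lay between -2.94 and -2.48, a grouping made after their values were seen.

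**Figure D2:**
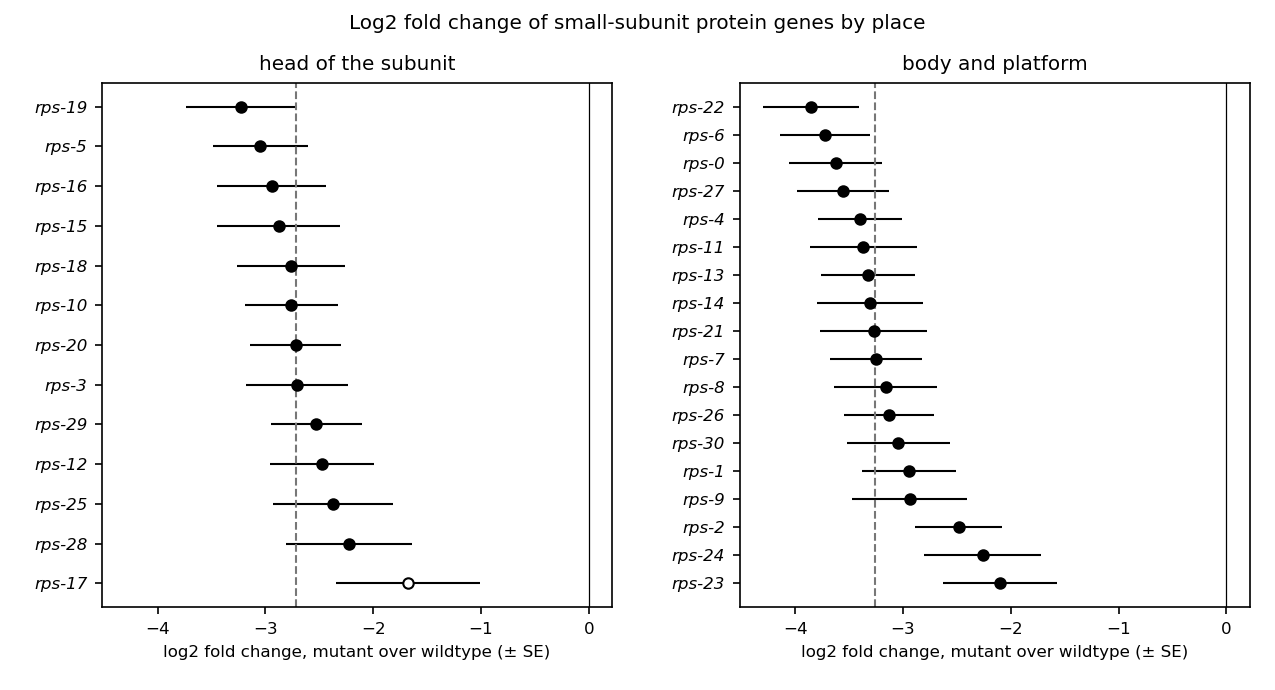
Log2 fold change of each gene, mutant over wildtype, with its standard error as a horizontal bar, for proteins of the head and of the body and platform. Filled points passed the test, the open point is rps-17, and the dashed lines mark medians of -2.72 in the head and -3.26 in the body and platform.

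Levels of different genes can be set side by side per kilobase of summed exon length, as far as these lengths hold. The lengths are those of the count table. For rps-11, rps-14, rps-15, rps-16 and rps-20 they exceed the whole span of the gene in Ensembl release 115, so the orders depend on the annotation. By the mean over all 7 libraries, both genotypes pooled, the highest 4 of the set per kb were rps-9, rps-25, rps-12 and rps-23. The gene rps-9, for uS4, had 246, 204, 177 and 720.2 CPM in the mutant libraries and 2136, 2567 and 3032 CPM in wildtype before division by length. Per kb this was 501 ± 383 CPM per kb in the mutant and 3837 ± 667 CPM per kb in wildtype (SD, n = 4 and 3), and its log2 fold change of -2.94 (SE 0.53, edgeR adjusted p = 0.00222) was at the median of the set. The gene rps-25 had 652 ± 506 CPM per kb in the mutant and 3384 ± 1053 CPM per kb in wildtype. In rps-12 the level was 608 ± 411 CPM per kb in the mutant and 3378 ± 419 CPM per kb in wildtype, and in rps-23 661 ± 525 CPM per kb in the mutant and 2836 ± 318 CPM per kb in wildtype. Within each genotype the order differed. In the mutant alone the highest mean was that of rps-17, at 715 ± 745 CPM per kb, and rps-9 came after rps-23, rps-25, rps-12 and rps-24. In wildtype alone rps-4, rps-24 and rps-3, at 3244, 2897 and 2836 CPM per kb, came before rps-23. Neighbours in these orders differed by less than their standard deviations. By the same pooled mean the lowest 4 were rps-19, rps-20, rps-22 and rps-21. The level was 117 ± 87.5 CPM per kb in the mutant and 1092 ± 179 CPM per kb in wildtype for rps-19, and 193 ± 100.4 CPM per kb in the mutant and 1270.1 ± 247 CPM per kb in wildtype for rps-20. It was 98.5 ± 56.5 CPM per kb in the mutant and 1423 ± 54.1 CPM per kb in wildtype for rps-22, the lowest mutant mean of the 31 genes, and 162 ± 114 CPM per kb in the mutant and 1566 ± 127 CPM per kb in wildtype for rps-21. The genes lowest per kb had the following levels before division by length. The gene rps-19 had 55.4, 51.3, 48.4 and 175 CPM in the mutant libraries and 631, 878 and 806 CPM in wildtype, with a log2 fold change of -3.22 (SE 0.52, edgeR adjusted p = 0.00128). The gene rps-20 had 146, 116, 104 and 289 CPM in the mutant libraries and 1061, 1296 and 878 CPM in wildtype, with a log2 fold change of -2.72 (SE 0.43, edgeR adjusted p = 0.00116). The gene rps-21 had 44.95, 34.002, 30.1 and 113 CPM in the mutant libraries and 529, 584 and 498 CPM in wildtype, with a log2 fold change of -3.27 (SE 0.50, edgeR adjusted p = 9.75e-04). In all 3 mutant library 30 was the highest of its group and still below every wildtype library. Per kb, the highest gene exceeded the lowest by 8.74, 5.45, 5.23 and 9.91 times in mutant libraries 11, 22, 29 and 30, against 3.77, 3.58 and 4.36 times in wildtype libraries 11, 22 and 30. Levels within the subunit were thus spread over a wider range in each mutant library than in any wildtype library. Across the 31 genes, log2 CPM per kb correlated between 2 mutant libraries at Pearson r from 0.825 to 0.993, between 2 wildtype libraries from 0.642 to 0.968, and between a mutant and a wildtype library from 0.588 to 0.845. These are descriptions over genes that share libraries and lengths.

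Each gene was also read as a share of the rps counts of its library, which removes the common fall. For rps-22 the share was 1.11, 1.40, 1.35 and 1.16% of the rps counts in mutant libraries 11, 22, 29 and 30, against 2.59, 2.05 and 2.64% in wildtype libraries 11, 22 and 30. It was lower in every mutant library. For rps-0 it was 2.88, 4.35, 4.31 and 3.03% of the rps counts in mutant libraries 11, 22, 29 and 30, against 5.84, 5.80 and 5.53% in wildtype libraries 11, 22 and 30, again without overlap. The share of rps-2 went the other way, at 6.19, 8.37, 7.90 and 5.68% of the rps counts in mutant libraries 11, 22, 29 and 30, against 4.50, 4.88 and 5.56% in wildtype libraries 11, 22 and 30. The share of rps-23 was 5.80, 4.15, 4.77 and 6.17% of the rps counts in mutant libraries 11, 22, 29 and 30, against 3.14, 2.99 and 3.61% in wildtype libraries 11, 22 and 30, and that of rps-29 1.39, 1.37, 1.30 and 1.19% of the rps counts in mutant libraries 11, 22, 29 and 30, against 1.01, 0.952 and 1.03% in wildtype libraries 11, 22 and 30. The shares of these 3 genes were higher in all mutant libraries than in any wildtype library.

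Shares did not overlap between the genotypes for 11 genes that were lower in the mutant and 5 that were higher, rps-2, rps-12, rps-23, rps-24 and rps-29. On the same scale 8.91% of all genes tested were lower without overlap and 63.2% higher. With the summed rps counts as library size, the log2 fold changes ran from -0.95 for rps-22 to 0.96 for rps-17, with standard errors from 0.44 to 0.54. By this test 0 of the 31 genes departed from the sum in either direction (edgeR adjusted p for rps-22 = 0.0761). At an unadjusted p under 0.05 there were also 0, and DESeq2 with the same scaling called 0 (0 unadjusted). Of all genes tested, 7.76% were called lower and 65.2% higher on this scale. The standard errors were as large as most of the differences. Unequal falls within the subunit were therefore not detectable by this test, and equal falls are not shown by it. The fit draws the spread of each gene toward that of all genes tested, so these standard errors do not measure the spread of the shares alone. For rps-27 the share was 0.938 ± 0.0825% in the mutant and 1.43 ± 0.0451% in wildtype (SD), with a log2 fold change of -0.60 (SE 0.44). Without mutant library 30, 1 gene, rps-22, was called lower (log2 fold change -0.91, edgeR adjusted p = 0.0245).

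**Figure D3:**
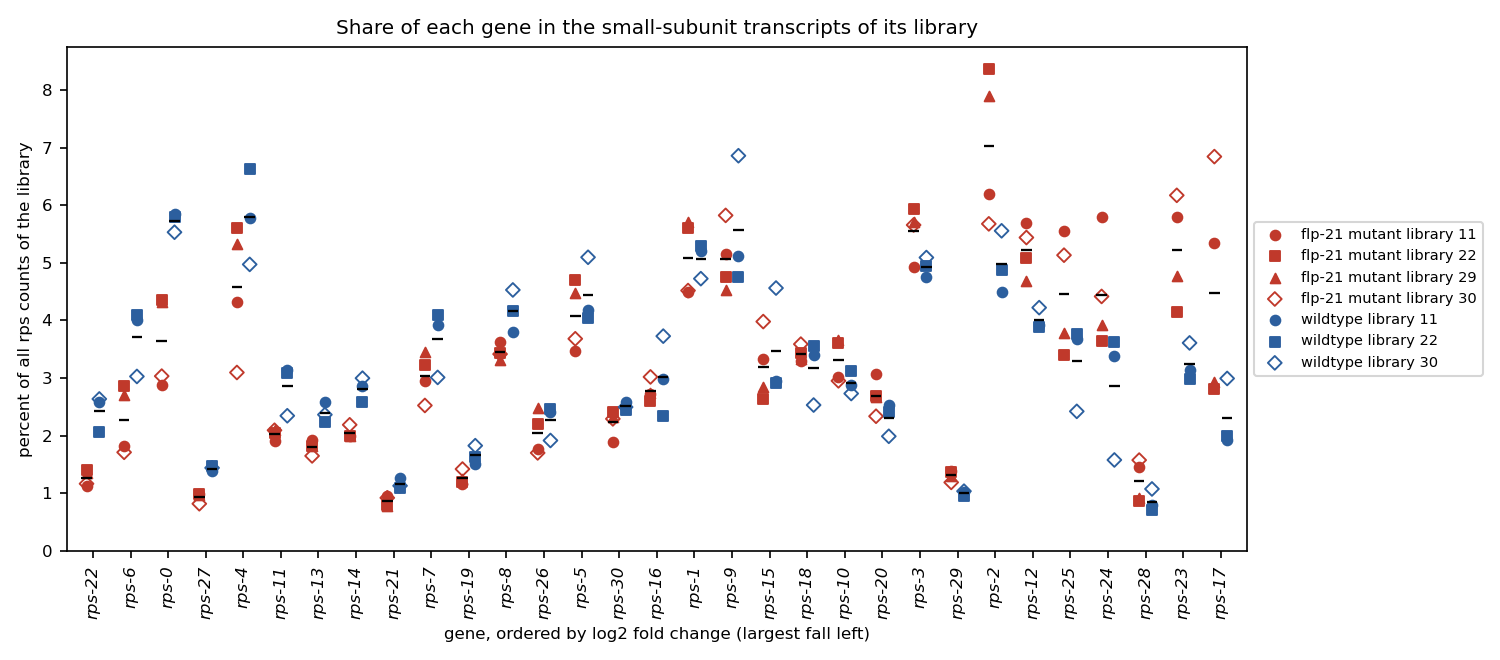
Share of each gene in the summed small-subunit counts of its library, in percent, mutant left of wildtype, in the order of log2 fold change, with black bars for the genotype means. The leftmost genes have lower shares in the mutant, such as rps-22 at 1.26% against 2.43% on average, and those at the right higher ones, such as rps-23 at 5.23% against 3.24%.

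Members with shorter exons tended to have the smaller falls, mostly in 2 of the 4 mutant libraries. Across the 31 genes the log2 fold change and the summed exon length, 266 to 1019 bases, had a Pearson correlation of -0.40 and a Spearman correlation of -0.34. The same over 50 large-subunit genes was -0.43 and -0.49, while over all 13035 genes tested the Spearman correlation was 0.20. Taken library by library, as the log2 ratio to the wildtype mean, the Pearson correlation with length over the 31 genes was -0.47, -0.13, -0.18 and -0.43 in mutant libraries 11, 22, 29 and 30. It was thus stronger in libraries 11 and 30 than in libraries 22 and 29. These are descriptions, since genes share the libraries and are no replicates. Exceptions were plain on both sides. The short gene rps-27, of 356 bases, was among the largest falls, and rps-2, of 948 bases, among the smaller ones. The lengths of rps-11, rps-14, rps-15, rps-16 and rps-20 exceed the annotated span of the gene, as given above. The part of gene length in the unequal falls was not tested.

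**Figure D4:**
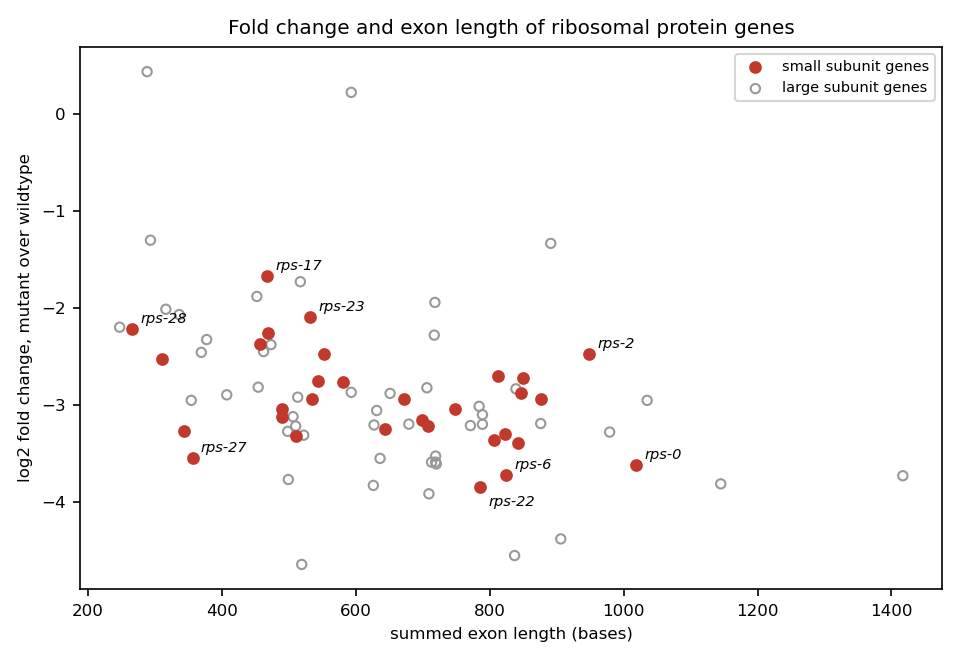
Log2 fold change, mutant over wildtype, against summed exon length in bases, for the 31 small-subunit genes (filled) and 50 large-subunit genes (open). The small-subunit genes lie between -3.85 and -1.67, with a Pearson correlation of -0.40 between the axes, and rps-27 and rps-2 as exceptions to it.

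The other proteins of the small subunit, which carry other names, moved with the rps genes. The scaffold protein gene rack-1, whose product is bound to the head, had 146, 229, 186 and 286 CPM in the mutant libraries and 2607, 3167 and 3110.2 CPM in wildtype, with a log2 fold change of -3.81 (SE 0.37, edgeR adjusted p = 1.47e-04). The gene ubl-1, which encodes a ubiquitin-like protein fused to ribosomal protein eS31, had 77.2, 75.7, 71.3 and 171 CPM in the mutant libraries and 1171, 1447 and 748 CPM in wildtype, with a log2 fold change of -3.51 (SE 0.44, edgeR adjusted p = 4.85e-04). Neither overlapped between the genotypes. Of 50 large-subunit genes 47 fell and 0 rose, against 29.4% and 9.01% of all genes tested. These genes, rpl-24.2 included, were taken by their rpl or rla symbol alone, which does not show that each product is part of the subunit. Their median log2 fold change was -3.04, and the smallest p-values were those of rpl-1 (-4.55) and rpl-7A (-4.38). The 3 that did not pass were rpl-41.1 (0.43), rpl-41.2 (-1.30) and rpl-24.2 (0.22), of which the first 2 are copies of one gene whose reads cannot be assigned with certainty. Without wildtype libraries 11 and 22, 31 of them fell. Divided by the summed level of the large subunit, that of the small subunit was 0.656, 0.669, 0.660 and 0.658 in mutant libraries 11, 22, 29 and 30, against 0.679, 0.686 and 0.712 in wildtype libraries 11, 22 and 30. Both subunits thus kept nearly the same proportion in every library, with all mutant values slightly below the wildtype values.

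The small subunit of the mitochondrial ribosome, encoded in the nucleus by other genes, showed few calls. Of 29 mrps genes 1 fell and 0 rose, against 29.4% and 9.01% of all genes tested. Their median log2 fold change was -0.49. The one that fell was mrps-18C, at 24.6 ± 7.61 CPM in the mutant (SD, n = 4) and 80.4 ± 25.4 CPM in wildtype (n = 3) (-1.71, edgeR adjusted p = 0.00525), and mrps-12 followed with a log2 fold change of -1.57 (SE 0.63, edgeR adjusted p = 0.0755), which did not pass. Without mutant library 30, 6 mrps genes fell, and without wildtype library 30, 3. Summed over rps genes, the level was 5.05, 6.51, 5.73 and 7.38 times that of mrps genes in mutant libraries 11, 22, 29 and 30, against 44.1, 37.6 and 33.9 times in wildtype libraries 11, 22 and 30.

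Initiation factors, mostly ones that work on the small subunit, showed 0 falls and 0 rises among 19 genes in edgeR (1 lower and 1 higher at an unadjusted p under 0.05), with a median log2 fold change of -0.13. The list also holds eif-6, and its names eif-3.M, iftb-1 and eif-5 matched no gene symbol. The smallest p-values were those of eif-2A (0.83, adjusted p = 0.0582) and the eIF3 subunit gene eif-3.H (-0.76, adjusted p = 0.0821), and DESeq2 called 0 lower and 1 higher. Of 20 genes for ribosome assembly 2 fell and 3 rose (median 0.37). This list is not confined to the small subunit, since it also holds pro-1, pro-2, nst-1 and lpd-6. Beside both lists, 29.4% of all genes tested fell and 9.01% rose. The nucleolar gene nol-6 had 5.97 ± 1.93 CPM in the mutant (SD, n = 4) and 28.9 ± 14.4 CPM in wildtype (n = 3), a log2 fold change of -2.28 (SE 0.47, edgeR adjusted p = 0.00443), and imp-3, for a component of the U3 particle that processes the small-subunit RNA, had 67.4 ± 10.5 CPM in the mutant (SD, n = 4) and 26.1 ± 1.43 CPM in wildtype (n = 3), a log2 fold change of 1.37 (SE 0.32, edgeR adjusted p = 0.00727). The other calls were nol-56 among the falls (-0.97) and the kinase genes riok-1 (1.04) and riok-3 (1.17) among the rises. The count of rises was 1 without mutant library 11, 22 or 29 or wildtype library 11 and 5 without wildtype library 30.

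Among 13 genes of the TOR pathway and other regulators of ribosome production 4 rose and 0 fell, with a median of 0.98. Beside this, 9.01% of all genes tested rose and 29.4% fell. The TOR kinase gene let-363 had 312, 341, 370.2 and 112 CPM in the mutant libraries and 81.5, 76.7 and 27.6 CPM in wildtype, with a log2 fold change of 2.20 (SE 0.53, edgeR adjusted p = 0.00949). Its levels in mutant library 30 and in wildtype library 30 were the lowest of their groups, and the genotypes did not overlap. The gene rict-1, for the TOR complex subunit Rictor, had 302 ± 70.9 CPM in the mutant (SD, n = 4) and 97.2 ± 13.4 CPM in wildtype (n = 3), a log2 fold change of 1.63 (SE 0.33, edgeR adjusted p = 0.00396). The other 2 were rheb-1 (1.24), for the small GTPase that activates the TOR kinase, and daf-15 (1.78), for the TOR complex subunit Raptor. The count of rises was 2 without mutant library 11 or wildtype library 11, 8 without wildtype library 30, and 1 without mutant libraries 22 and 29.

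**Figure D5:**
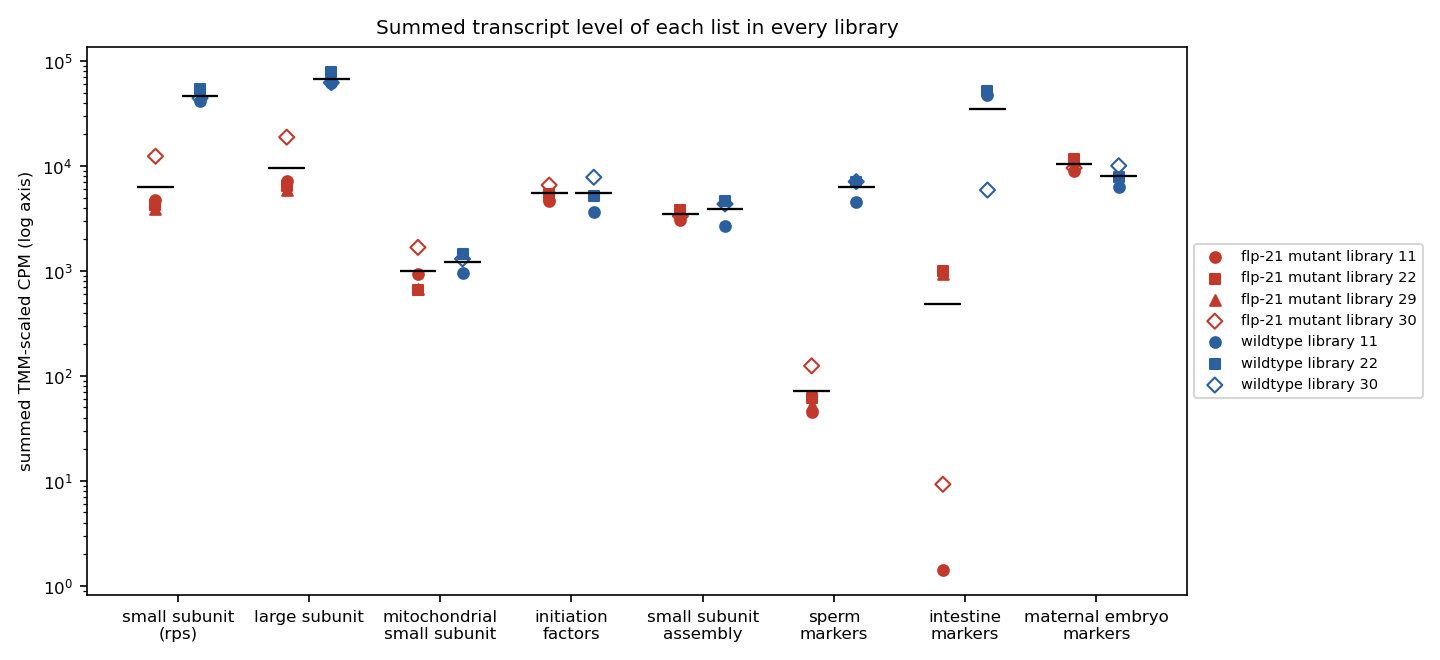
Summed TMM-scaled CPM of each list on a log axis in every library, mutant left of wildtype, with black bars for the arithmetic mean of each genotype. The assembly list is not confined to the small subunit. Small and large subunit sums separate the genotypes, at 3896 to 12365 CPM against 41795 to 53957 CPM for the small subunit, while the sums for the mitochondrial small subunit, initiation and assembly overlap, and sperm and intestine markers separate them too.

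Transcripts of tissues that an early embryo does not have differed between the genotypes in the same direction as the rps genes. All 22 sperm markers fell, and their summed level was 45.03 to 125 CPM in the mutant libraries and 4573 to 7107 CPM in wildtype. All 14 adult intestine markers fell, with sums of 1.41 to 1007 CPM in the mutant and 5891 to 52233 CPM in wildtype. Of 14 cuticle markers tested of 16, 12 fell (0.804 to 679.8 CPM against 3577 to 24689 CPM), as did all 8 body wall muscle markers (192 to 431 CPM against 1683 to 4747 CPM). Over all genes tested, 29.4% fell and 9.01% rose. Markers this scarce in the mutant could pass the low-count filter through the wildtype libraries. The lists were also chosen with earlier results of these data known, so these counts are descriptions. No marker of these 4 lists was at 0 in all mutant libraries. The maternal embryo markers, at 8911 to 11564 CPM in the mutant and 6303 to 10048 CPM in wildtype, were abundant as a sum in every library, with 3 of 12 higher and 1 lower. Single maternal markers were not level, with log2 fold changes from -4.39 to 1.64 and a median of 0.58. Among meiotic germ line markers 0 of 7 passed in edgeR (unadjusted, 0 lower and 1 higher, with sums of 443 to 648 CPM against 343 to 666 CPM). Of 11 zygotic markers 0 passed in edgeR, unadjusted p included, with sums of 36.7 to 56.5 CPM in the mutant and 3.90 to 78.5 CPM in wildtype. Ribosomal RNA genes took 2.40% to 3.72% of the counts in the mutant and 3.99% to 13.3% in wildtype.

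The order of libraries by these markers was in part that of the rps genes. Mutant library 30 had the highest sum of its group for rps genes and for sperm markers. For intestine markers it had 9.28 CPM, against 1007 and 927 CPM in mutant libraries 22 and 29, which had the lowest sums of rps genes. Wildtype library 30 held 5891 CPM of intestine markers, against 47162 and 52233 CPM in wildtype libraries 11 and 22, while its rps sum lay between theirs. Across the 31 genes its level was 0.413 to 1.44 times the mean of the other wildtype libraries, with a median of 0.931. With the sperm, intestine, cuticle and muscle markers taken out of the table before scaling, 30 of 31 rps genes still fell, with a median of -2.95, and with ribosomal RNA taken out likewise 30, with a median of -2.86. Taking markers out changes the scaling and not the RNA of other genes from those tissues, whose part in the fall of rps genes was not tested.

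The genes lie on 5 chromosomes, 8 on I, 1 on II, 9 on III, 10 on IV and 3 on V. Their median log2 fold changes were -3.003 on I, -3.27 on III, -2.62 on IV and -3.04 on V, and rps-9 on II stood at -2.94. The gene rps-30 (WBGene00004499, chromosome V from 7776576 to 7777236), made as a fusion of a ubiquitin-like protein with eS30, lies 16129 bases from flp-21. It had 90.1, 103, 90.4 and 283 CPM in the mutant libraries and 1079, 1322 and 1103 CPM in wildtype. Its log2 fold change of -3.04 (SE 0.48, edgeR adjusted p = 0.00116) was near the median of the set. In 6 genes (rps-3, rps-14, rps-16, rps-18, rps-20 and rps-26) an exon overlaps an exon of another gene in the count table, and the count command names no strand, so reads there cannot be assigned with certainty. The first of these, rps-3, had 353 ± 232 CPM in the mutant (SD, n = 4) and 2303 ± 345 CPM in wildtype (n = 3), a log2 fold change of -2.71 (SE 0.48, edgeR adjusted p = 0.00191).

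The authors' deposited table of their own DESeq2 comparison lists 30 of the 31 genes, all lower in the mutant, with log2 fold changes from -3.80 to -2.05. In the authors' deposited table rps-22 has the lowest value and rps-23 the highest (-2.05, SE 0.58). It holds no gene with an absolute log2 fold change under 1.5 and none with an adjusted p above 0.0497, and rps-17 is the gene of the set that it does not list.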

How the data were processed

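RNA of early embryos was sequenced in 7 libraries. The deposited count table holds raw read counts per gene, made by the authors with featureCounts 1.6.4 over exons per gene, per the file headers, without a strand or multi-mapping option. The table covers 46748 genes and gives their summed exon length. BWA and DESeq2 are named, without version, and build WBcel235 is given, per the submitters' processing notes. The authors' deposited table of their own comparison gives mean normalised counts as a signal, log2 fold changes, p-values and a Wald statistic as a score, per the file headers. It holds 3791 genes.

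Symbols came from a gene-name table (43693 identifiers matched). Coordinates and summed exon lengths are those of the deposited count table, WBcel235. For 0 of the 31 genes do start and end both equal those of Ensembl release 115. Counts were fitted with edgeR 4.0.16 (R 4.3.3): TMM, filterByExpr, robust quasi-likelihood with genotype alone over 13035 genes, Benjamini-Hochberg adjustment, threshold 0.05. A second fit took the summed rps counts as library size. SE is the log2 fold change divided by the square root of F. DESeq2 1.42.0, other scalings and filters, left-out libraries and a replicate block were alternatives. The fits were tested on simulated counts with equal numbers of genes raised and lowered. Falls outnumbered rises in the real data, so that simulation does not test the scaling under such a shift.

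Per-library values are given for the 6 largest and 6 smallest falls, the 4 highest and 4 lowest genes per kb and any gene not passing, with the 2 smallest p-values of each other list. Further genes were named after their values were seen. Members, gene lists and markers were chosen with earlier results of these data known. No sequence is printed. One count corresponds to 0.0181 to 0.0377 TMM-scaled CPM, depending on the library.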

Additional observations from a re-analysis of the deposited data

Results flagged for a closer look

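Mutant library 30 lay far above mutant libraries 11, 22 and 29 for most small-subunit genes. Its gap to the nearest of the others, as a share of the range of the 4 libraries, passed Dixon's 95% critical value for 21 of the 31 genes and for their sum. Chance gives such a gap in about 1 in 20 groups, and the 31 genes share their libraries, so the 21 are not independent. The summed level was 12365 CPM in mutant library 30, against 3896 to 4760.2 CPM in the other mutant libraries and 41795 to 53957 CPM in wildtype. The trait was not particular to the small subunit. For the large subunit the sum was 18797 CPM in mutant library 30, against 5905 to 7252 CPM in mutant libraries 11, 22 and 29. For the mitochondrial small subunit it was 1676 CPM against 659 to 943 CPM. For assembly genes mutant library 30 lay within the range of those libraries, and for regulators below it.

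Among proteins of the head, the values of mutant library 30 were 699.6 CPM for rps-3, 455 CPM for rps-5, 365 CPM for rps-10, 492 CPM for rps-15, 373 CPM for rps-16, 444 CPM for rps-18, 175 CPM for rps-19 and 147 CPM for rps-29. Among proteins of the body and platform they were 559 CPM for rps-1, 702 CPM for rps-2, 312 CPM for rps-7, 422 CPM for rps-8, 720.2 CPM for rps-9, 259 CPM for rps-11, 204 CPM for rps-13, 270.4 CPM for rps-14, 144 CPM for rps-22, 763 CPM for rps-23, 210.0 CPM for rps-26, 100.8 CPM for rps-27 and 283 CPM for rps-30. In all 21 this library was the high one, and in all 21 it still lay below the lowest wildtype library. The same library also had the highest sperm marker sum of the mutant libraries and a share of ribosomal RNA within their range, and the part of either in these levels was not tested.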

How the results depend on the processing

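The direction of the rps genes did not depend on the settings tried. Over 19 settings all 589 log2 fold changes of the 31 genes were negative, 575 kept their call, 12 lost it and 2 gained it. The median over the genes lay between -3.58 and -2.58. The settings are not independent. That against a fold of 2 changes only the p-values, so its log2 fold changes repeat those of the main fit, and RLE scaling and DESeq2 gave the same median of -2.83. The median log2 fold change of all genes was -0.21 with TMM, -0.42 with upper quartile scaling, -0.06 with RLE scaling and 0.01 with library size alone. Leaving out single libraries gave 29 to 31 rps genes lower and 0 higher, and against a fold of 2 (glmTreat) 30 were lower. Without mutant libraries 22 and 29 it was 25 and without wildtype libraries 11 and 22 it was 24.

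The smaller lists moved more. With upper quartile scaling, 2 mitochondrial small-subunit genes and 1 initiation factor were lower and 1 assembly gene was higher. With RLE scaling, as with DESeq2, 1 initiation factor was higher, 1 assembly gene lower and 7 regulators higher. With library size alone 1 initiation factor, 5 assembly genes and 9 regulators were higher and 1 assembly gene lower. Without a filter beyond 1 count, 1 initiation factor and 1 assembly gene were higher and 1 assembly gene lower. With a filter of 5 CPM, 2 initiation factors were lower, and 1 assembly gene and 2 regulators were higher. With ribosomal RNA taken out, 1 initiation factor was higher. Without mutant libraries 22 and 29, mitochondrial genes were 0 lower and 1 higher, assembly genes 1 lower and 1 higher, and 1 regulator was higher. Without wildtype libraries 11 and 22, 31 large-subunit genes, 0 mitochondrial genes and 3 initiation factors were lower, and 6 assembly genes and 2 regulators were higher. Leaving out single libraries, large-subunit genes lower numbered 41 to 48, mitochondrial genes lower 1 to 6, initiation factors higher 0 to 3, assembly genes lower 1 to 3 and higher 1 to 5, regulators higher 2 to 8, and rps genes lower relative to their sum 0 to 1. The cause of these shifts was not tested.

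The numbers 11, 22 and 30 occur in both genotypes, but the deviations of same-numbered libraries from their group means correlated at -0.197, 0.068 and 0.456, and mutant libraries 11 and 22 each correlated best with the other number, so the numbers were not taken to pair the samples. What they mark is not known, and the pair numbered 30 correlated best of all. With the number as a replicate block, 31 rps genes were lower, with a median of -2.98, including rps-17 at -1.81 (edgeR adjusted p = 0.0307), and 5 regulators were higher.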
